A study of Homo sapiens with 18 samples.

Results

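Gene deserts are long stretches of the genome without protein-coding genes. Regulatory elements in them, mainly distal enhancers, can lie very far from the start site of the gene they act on, and many such elements are open only in some cell types. The regions described here are those ATAC-seq regions on chromosomes 1 to 22 that lay more than 200 kb from every transcription start site of a protein-coding gene (GENCODE release 44 on GRCh37, 146576 start sites of 20176 genes). They number 17655 of 115087 regions (15.3%), and of 111867 autosomal regions. They are called desert regions below, and the rule that chose them used position only and no signal. ATAC-seq uses the Tn5 transposase, which cuts and tags open chromatin, so that the number of reads over a region measures its accessibility.

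The study followed 3 head and neck squamous cell carcinoma (HNSCC) lines, SCC1, SCC6 and SCC25, treated each day for 5 days with 100 nM cetuximab, an antibody that blocks the epidermal growth factor receptor EGFR, or with PBS as the untreated control. Each line and treatment had 3 replicates with files, apart from SCC1 PBS, which had 2 (replicates 1 and 3), and SCC1 PBS replicate 2 was not analysed here. The labels give no genotype or added allele for any group, and a line stands for the tumour of 1 person grown in culture. Nothing in the labels says whether replicates were separate cultures, so p-values measure the spread between these libraries, which may be technical. The promoters of the epithelial genes EPCAM, CDH1, DSP and KRT17 carried a peak in 12 to 16 of the 17 libraries and those of KRT5, KRT14 and TP63 in 6 to 8, while the blood cell genes PTPRC and CD3E had no region within 1 kb of a start site.

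The unit throughout is the deposited signal, a read count scaled per library. A value of 0 had been set to 1 read, so that the lowest value of a library, between 0.331 and 1.95 on the signal scale, means 1 read or none. Reads in all regions ran from 2194851 to 15017130 per library. In desert regions the median was 2 to 4 reads in SCC1, 12 to 50 in SCC6 and 5 to 31 in SCC25, and 7.94% to 44.7% of desert regions were at 1 read in a library. The median was lowest in the SCC1 libraries, while by the sum of reads in desert regions an SCC25 library, cetuximab replicate 3 with 249036, was below both untreated SCC1 libraries (276356 and 314634). DNA copy number was not measured in these libraries, so that a difference in signal between lines cannot be told apart from a difference in copies.

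The desert regions were narrower and richer in A and T than the rest. Their median GC content was 39.9%, against 45.9% over all regions and 63.6% in the 17724 autosomal regions within 1 kb of a start site. Their median width was 201 bases, against 258 over all regions. The median distance to a start site was 411.743 kb, and 1941 desert regions (10.99%) lay over 1 Mb away. They were not all in gene-free sequence, which goes partly against the name gene desert. Of all, 10621 (60.2%) lay between genes, 5804 in a long non-coding RNA gene and 1230 (6.97%) inside a protein-coding gene, far from its start. Those 1230 sat in 190 genes, led by LRP1B with 40 regions, DPYD with 31 and PTPRD with 27, all very long genes. Among long non-coding RNA genes, CCDC26 held 53 and PKN2-AS1 held 44. Only 4081 desert regions (23.1%) were also more than 200 kb from every long non-coding RNA start site, and 161 lay within 200 kb of an immunoglobulin or T cell receptor gene segment, which the annotation does not count as protein-coding.

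Short motifs of transcription factors were counted in the central 200 bases of each region, on both strands. The AP-1 motif (TGANTCA, bound by FOS and JUN proteins downstream of EGFR signalling) was in 26.8% of desert regions and 26.6% of all regions. The TEAD motif (GGAATG) was in 15.6% and 16.6%, and the RUNX motif (TGTGGTT) in 6.90% and 6.66%. The TFAP2 motif (GCCNNNGGC) was in 3.39% of desert regions against 8.55% of all regions, and part of a CTCF motif (CAGNGGGC) in 2.51% against 4.99%. These last motifs are rich in G and C, as the promoters are that were left out by the distance rule. A match describes the letters only.

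The central 200 bases of 5 desert regions are shown because the results below turn on them. They come from the GRCh37 reference on its forward strand, in lower case with matches to the 5 motifs in capitals. Each is named by the gene with the nearest start site, which gives a position only, since the gene a region acts on was not measured. Near TMEM132B lies the region with the smallest p among those that fell in SCC6, and its capitals are a TEAD and a RUNX match that overlap. The region near C12orf50 led those that rose in SCC1 and held no match. That near ANKRD30A was among the 3 leading regions that fell in SCC25, and had an AP-1 and a RUNX match. Near NR5A2 lies the region that had the largest difference in favour of untreated SCC6 and held no match. Near NFE2L3 lies the region with the highest mean signal of those with a peak in all libraries, and it holds a TFAP2 match.
TMEM132B, chr12:126540155-126540354: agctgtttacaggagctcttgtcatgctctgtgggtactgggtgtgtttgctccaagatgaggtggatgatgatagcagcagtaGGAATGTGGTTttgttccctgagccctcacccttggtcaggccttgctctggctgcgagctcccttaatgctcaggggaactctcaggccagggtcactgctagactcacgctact
C12orf50, chr12:88172928-88173127: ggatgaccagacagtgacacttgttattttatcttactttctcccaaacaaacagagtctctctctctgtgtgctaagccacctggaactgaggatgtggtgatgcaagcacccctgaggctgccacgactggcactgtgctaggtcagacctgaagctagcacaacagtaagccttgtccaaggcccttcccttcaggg
ANKRD30A, chr10:36758642-36758841: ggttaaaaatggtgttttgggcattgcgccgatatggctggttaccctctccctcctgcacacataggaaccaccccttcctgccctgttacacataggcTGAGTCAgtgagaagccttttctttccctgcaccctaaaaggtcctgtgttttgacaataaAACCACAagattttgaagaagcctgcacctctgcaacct
NR5A2, chr1:199648656-199648855: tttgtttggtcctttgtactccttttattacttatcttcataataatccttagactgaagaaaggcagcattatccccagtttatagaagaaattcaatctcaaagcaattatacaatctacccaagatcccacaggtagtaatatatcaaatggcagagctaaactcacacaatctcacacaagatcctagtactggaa
NFE2L3, chr7:25902030-25902229: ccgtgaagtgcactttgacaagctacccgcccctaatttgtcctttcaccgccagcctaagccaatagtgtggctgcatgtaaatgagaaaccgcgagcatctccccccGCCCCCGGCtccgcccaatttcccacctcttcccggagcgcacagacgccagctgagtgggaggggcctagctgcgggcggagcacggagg

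Desert regions lay on each of the 22 autosomes. Stretches that lie wholly more than 200 kb from any protein-coding start site are called intervals here, and 948 of the 1053 intervals held at least 1 desert region. The intervals cover 589 Mb, or 21.9% of the known autosomal bases, with 29.98 desert regions per Mb, against 44.96 regions per Mb in the rest of the autosomes. Most desert regions were in large intervals, since 305 intervals with 20 or more held 12906 of them. Among chromosomes, 30.7% of the regions of chromosome 13 and 25.5% of those of chromosome 4 were desert regions, against 2.42% on chromosome 19 and 4.49% on chromosome 17, which are dense in genes. Per Mb of interval the chromosomes were closer together, from 17.2 on chromosome 21 to 34.0 on chromosome 6.

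The 8 intervals with the most desert regions held 100 to 139 each. The interval with the most lies between AGA and TENM3 on chromosome 4 (chr4:178563592-182865139) and held 139. It is followed by the intervals from PCDH7 to ARAP2 with 115, from ZEB2 to ACVR2A with 110, from CELF4 to PIK3C3 and from IFTAP to LRRC4C with 106 each, from C4orf33 to PCDH10 with 105, from CTNNA2 to SUCLG1 with 102 and from CDH9 to CDH6 with 100. PCDH7 and PCDH10 code for protocadherins and CDH6 and CDH9 for cadherins, which are cell adhesion proteins. The densest interval with 20 or more was short, between SOX9 and SLC39A11 on chromosome 17, with 103 desert regions per Mb over 0.205 Mb. SOX9 is a transcription factor of cartilage and epithelial progenitors whose distal enhancers are a known example of regulation from a gene desert.

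Desert regions also lay close to each other. When neighbours of 1 interval at most 25 kb apart were joined, 2250 clusters of 3 or more held 10376 desert regions, and 3719 had no neighbour in that distance. With a gap of 10 kb there were 1181 such clusters, and with 50 kb there were 2192. The largest clusters had 19 to 21 regions. A cluster between OR4E1 and DAD1 (chr14:22623631-22838866) held 21, of which 16 lay within 10 kb of an immunoglobulin or T cell receptor segment, and it overlaps TRD-AS1 at the T cell receptor alpha and delta locus. It is therefore gene-poor only by the protein-coding rule. The others were the SOX9 to SLC39A11 cluster with 21 in 129.7 kb, overlapping the non-coding genes LINC00511 and LINC02003, a cluster over CASC15 between SOX4 and PRL with 20, and clusters of 19 between RASGRP1 and THBS1 and between MYO16 and IRS2, with which a cluster between TLR4 and BRINP1 tied.

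Desert regions took a different share of the reads in each line. In untreated libraries the share of reads was 7.54% and 7.73% in SCC1, 9.36% to 9.55% in SCC6 and 10.4% to 10.7% in SCC25, with no overlap between lines. For each pair of lines p was 0.1 in a two-sided exact permutation test, the smallest that 3 against 3 or 3 against 2 libraries allow. After cetuximab the share was 6.30%, 6.34% and 7.48% in SCC1 (6.71% ± 0.667, SD, n = 3), 9.83% to 11.5% in SCC6 (10.7% ± 0.829, n = 3) and 9.91% to 10.5% in SCC25 (10.1% ± 0.337, n = 3). The treated libraries of SCC6 were all above the untreated ones (exact permutation p = 0.1), those of SCC1 all below them (exact permutation p = 0.2), and those of SCC25 overlapped them (exact permutation p = 0.3). By peaks the order of SCC6 and SCC25 was the other way round. Desert regions overlapped 13.8% to 14.0% of the peaks of untreated SCC6, 10.7% to 12.4% of those of SCC25 and 8.30% to 8.67% of those of SCC1.

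**Figure D1:**
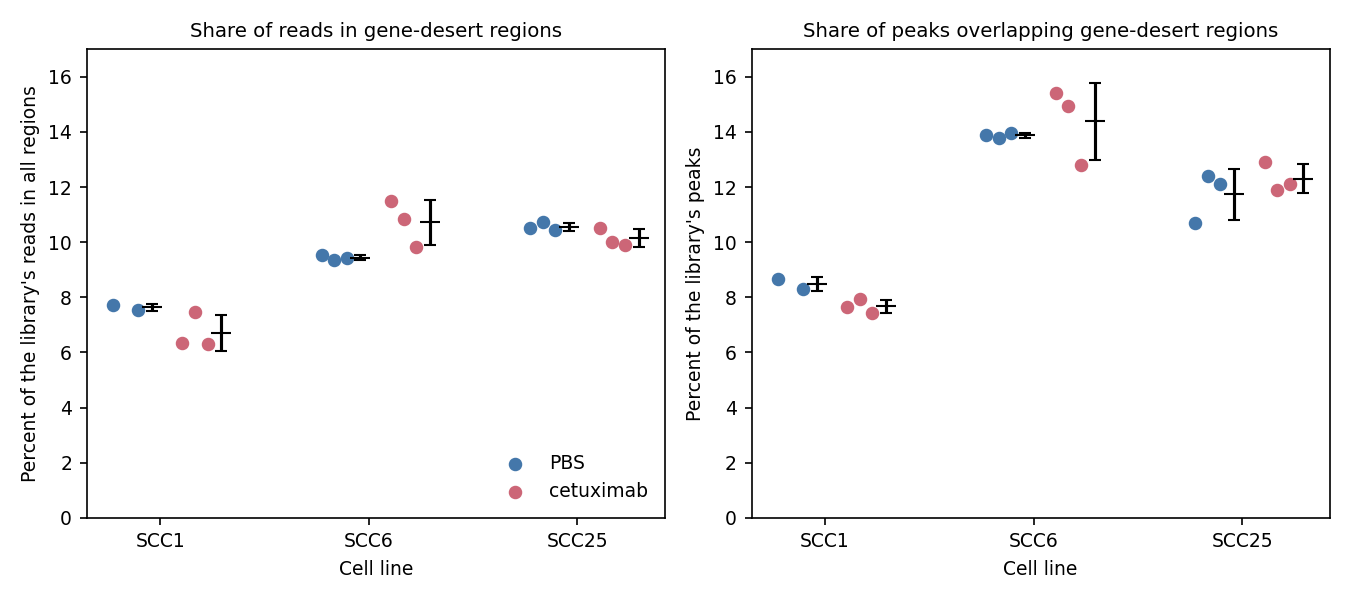
Share of each library's reads (left) and of its peaks (right) that fall in desert regions, in percent, for the PBS (blue) and cetuximab (red) libraries of each line; points are libraries, and black marks give the mean with the SD. The untreated lines do not overlap on the left, from 7.54% in SCC1 to 10.7% in SCC25, and SCC6 is highest on the right.

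Most desert regions had a peak in a single line, as did most of all regions by the shares below. A peak was counted for a line when at least 2 of its libraries had one. By that count 46.9% of desert regions had a peak in SCC6 only, 20.6% in SCC25 only and 2.181% in SCC1 only, while 9.93% had one in each of the 3 lines. Over all regions 34.9% were of SCC6 only, 18.1% of SCC25 only, 2.48% of SCC1 only and 20.7% of all 3 lines. In regions over 1 kb and up to 200 kb from a start site these shares were 36.0%, 19.5%, 2.87% and 16.5%. The shares of SCC25 only and of SCC1 only in desert regions were thus near those elsewhere. Peaks in all 17 libraries were found for 333 desert regions (1.89%, against 4.72% of all regions), and 44 overlapped no listed peak. Peak lists differ in length, from 13035 to 36033 peaks in SCC1, 47441 to 101272 in SCC6 and 18642 to 81963 in SCC25, and the part of this in the counts by line was not tested.

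The desert regions with peaks in SCC6 only were narrow and rich in A and T. Taking those with no peak in any library of the other lines, 7717 desert regions had a median GC content of 32.0% and an AP-1 match in 10.2%, and 86.7% of them were 201 bases wide or narrower. The 2762 found only in SCC25 had a median GC content of 44.2%, an AP-1 match in 43.7% and a RUNX match in 10.50%, and 29.7% of them were that narrow. The 226 found only in SCC1 had a median GC content of 46.1% and an AP-1 match in 34.96%. The 25370 autosomal regions outside the deserts with peaks in SCC6 only had a median GC content of 37.8% and an AP-1 match in 12.2%.

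The untreated libraries of the 3 lines were then compared by limma on the log2 signal, with all 115087 regions in the fit and the 25% lowest in mean left out. Of the desert regions, 11138 passed that filter. Since a region near the floor in 2 lines passes only where the other is high, these counts describe the regions that passed and not all desert regions. SCC25 was higher than both other lines in 3036 desert regions (27.3% of those tested; 18.3% of all regions tested) and SCC6 in 3066 (27.5%; 19.9% of all regions). SCC1 was higher than both in 933 (8.38%; 11.2% of all regions). Lower than in both other lines were 1725 in SCC1 (15.5%; 12.4% of all regions), 2243 in SCC6 (20.1%; 21.0% of all regions) and 891 in SCC25 (8.0%; 12.2% of all regions). Without SCC1 PBS replicate 1 the count higher in SCC1 was 580. When a trend with GC content was taken out of each library, which was chosen after seeing the data, 1781 desert regions were higher in SCC6, and all tested regions so called made up 14.7%.

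Among tested regions the share higher in SCC6 grew with the distance from genes. It was 19.2% of tested regions at 50 to 200 kb from a start site, 24.2% at 200 to 500 kb, 31.4% at 500 kb to 1 Mb and 39.1% beyond 1 Mb. Over the same bands the median GC content fell from 43.9% to 41.3%, 38.2% and 35.8%. The share higher in SCC25 was 22.2%, 28.4%, 26.2% and 22.7%, and that in SCC1 was 11.8%, 8.96%, 7.41% and 7.14%. Fewer regions passed the filter farther out, 16877 of 23394 at 50 to 200 kb and 1036 of 1941 beyond 1 Mb. A region near the floor in 2 lines passes only where the other is high, so these are shares of tested regions and not of all regions of a band. The parts of this filter and of GC content in these shares were not tested by band.

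**Figure D2:**
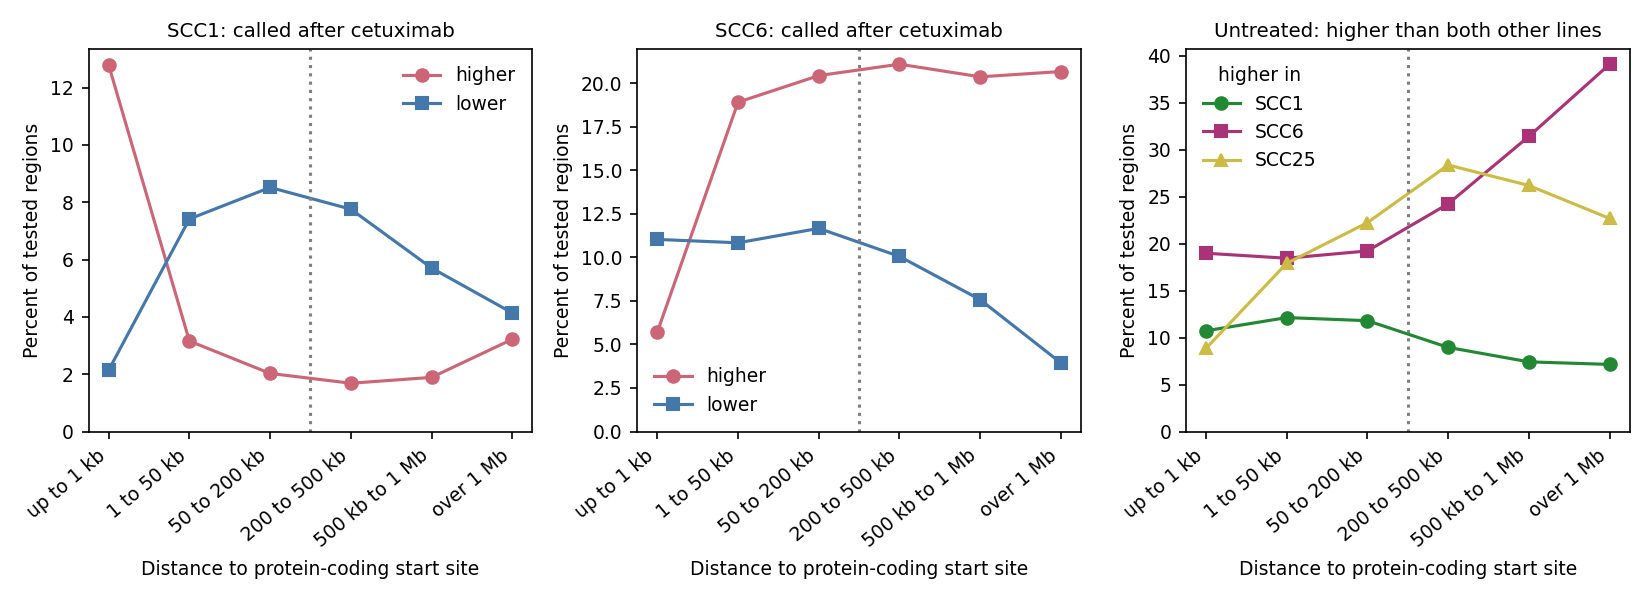
Percent of tested autosomal regions called by limma (adjusted p under 0.05), by distance to the nearest protein-coding start site, for the cetuximab comparison in SCC1 (left) and SCC6 (middle) and for untreated lines against both others (right); desert regions are right of the dotted line. Higher calls in SCC1 are at 12.8% within 1 kb and 1.69% to 3.22% in the desert bands. The share higher in SCC6 climbs to 39.1% of those tested beyond 1 Mb, where 1036 of 1941 regions passed the filter.

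The desert regions that set the lines apart most were all but closed elsewhere. The region chr1:199648656-199648855, 347.9 kb from NR5A2 and among those shown above, had signals of 664.5, 487.1 and 623.2 in the untreated SCC6 libraries, 1.3 and 1.1 in SCC1 and 0.8, 0.7 and 0.8 in SCC25. The values of the other lines stand for 1 or 2 reads at most, so no fold is given. Its adjusted p was 8.1e-10 against SCC1 and 1.5e-10 against SCC25 (limma). The region passed the filter through SCC6 and was named for the size of this difference, so its p-values are no separate support. Cetuximab left it at 472.4 to 905.1 in SCC6, a range that overlaps the untreated one. The 2 next, near SEMA3D (chr7:84457006-84457206) and LINGO2 (chr9:30496416-30496615), had means of 281.5 ± 36.3 and 233.2 ± 25.7 (SD, n = 3) in untreated SCC6 and the floor in untreated SCC1 and SCC25. These 3 regions were 200 or 201 bases wide with a GC content between 22.4% and 35%. The difference near SEMA3D between SCC25 and SCC6 went from -7.42 to -0.80 on the log2 scale when the GC trend was taken out, and lost its call (limma adjusted p = 0.0575), and the p-values of the NR5A2 region ran from 1.4e-37 to 8.8e-08 over 32 alternatives.

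In SCC25 the leading regions were wider. The region chr3:94998929-94999464, 1203.7 kb from NSUN3, had signals of 294.7, 282.7 and 257.9 in untreated SCC25, 1.3 and 3.3 in SCC1 and 0.7 to 1.2 in SCC6. A region 855.8 kb from ADGRL4 (chr1:80603621-80604265) had 536.2, 486.8 and 478.4 in untreated SCC25, 5.2 and 14.5 in SCC1 and 1.1 to 3.6 in SCC6. A region in PKN2-AS1, 608.5 kb from LMO4, which codes for a LIM domain protein, had 271.2 ± 24.3 (SD, n = 3) in untreated SCC25 and at most 8.9 in a library of the other lines. Neither of the first 2 changed by the test after cetuximab in SCC25, with means of 224.8 and 469.5. Each of the 3 differed from both other lines under all 16 alternatives to either pairwise comparison. They were named for the size of these differences, so this is no separate support for them.

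For SCC1 the leading region was 787.3 kb from NR2F1, a nuclear receptor gene (chr5:92131201-92131628). Its signal was 170.4 and 193.2 in untreated SCC1, 1.1 to 7.4 in SCC6 and 0.8 to 9.4 in SCC25. After cetuximab it was 107.9, 132.4 and 111.1 in SCC1, below both untreated libraries (log2 change -0.63 ± 0.22, SE; limma adjusted p = 0.0448). The others lay 580.4 kb from FAT1, where untreated SCC1 had 87.2 and 84.9 and all SCC25 libraries the floor, and 663.5 kb from GABRG1, a GABA receptor subunit gene, where the untreated SCC1 mean was 84.3 ± 15.05 (SD, n = 2).

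Whole intervals differed between lines in the same manner. Over the 22 desert regions between FAT1 and ZFP42 (chr4:187847877-188716924), each region was at 1 read or none in each of the 6 SCC25 libraries, while the mean signal was 23.3 ± 0.344 in untreated SCC1 (SD, n = 2) and 24.3 ± 1.89 in untreated SCC6 (SD, n = 3). The deepest of these SCC25 libraries, PBS replicate 1, had 13408698 reads in regions. The stretch of regions at the floor in every SCC25 library was longer than the interval and took in regions near genes. It ran over 113 neighbouring regions in 3303.745 kb, 43 of them desert regions (chr4:186699565-190003309), and took in FAT1 itself, which codes for an atypical cadherin. From its first region to the end of the chromosome 129 of 135 regions were at the floor in every SCC25 library, against 12.8% of all regions of chromosome 4. Lost DNA and closed chromatin cannot be told apart from these files.

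Other intervals were high in a single line. Between ADGRL3 and TECRL the 45 regions had 24.5 ± 1.04 in untreated SCC6, 2.94 ± 0.222 in SCC1 and 2.45 ± 0.0155 in SCC25. Of the 45 only 19 passed the filter, and 16 of these were higher in SCC6 than in both others. A region near the floor in SCC1 and SCC25 passes only where SCC6 is high, so this count follows in part from the filter. The counts of the intervals below are also of tested regions only. That interval had a median GC content of 31.5%. Between SOX9 and SLC39A11 13 of 20 tested regions were higher in SCC1, where the mean was 100.7 ± 0.349 against 37.5 ± 1.66 in SCC6 and 38.9 ± 3.54 in SCC25. Between RGMA and MCTP2 19 of 23 were higher in SCC25, with a mean of 54.6 ± 4.84 against 10.8 ± 0.453 in SCC1 and 17.7 ± 0.737 in SCC6. In the interval with the most regions, AGA to TENM3, 50 of 97 tested regions were higher in SCC25 and 20 in SCC6. Apart from this last one, these intervals were chosen after their values were seen, as extremes among the 305 with 20 or more regions, so they describe and carry no test of the interval.

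**Figure D3:**
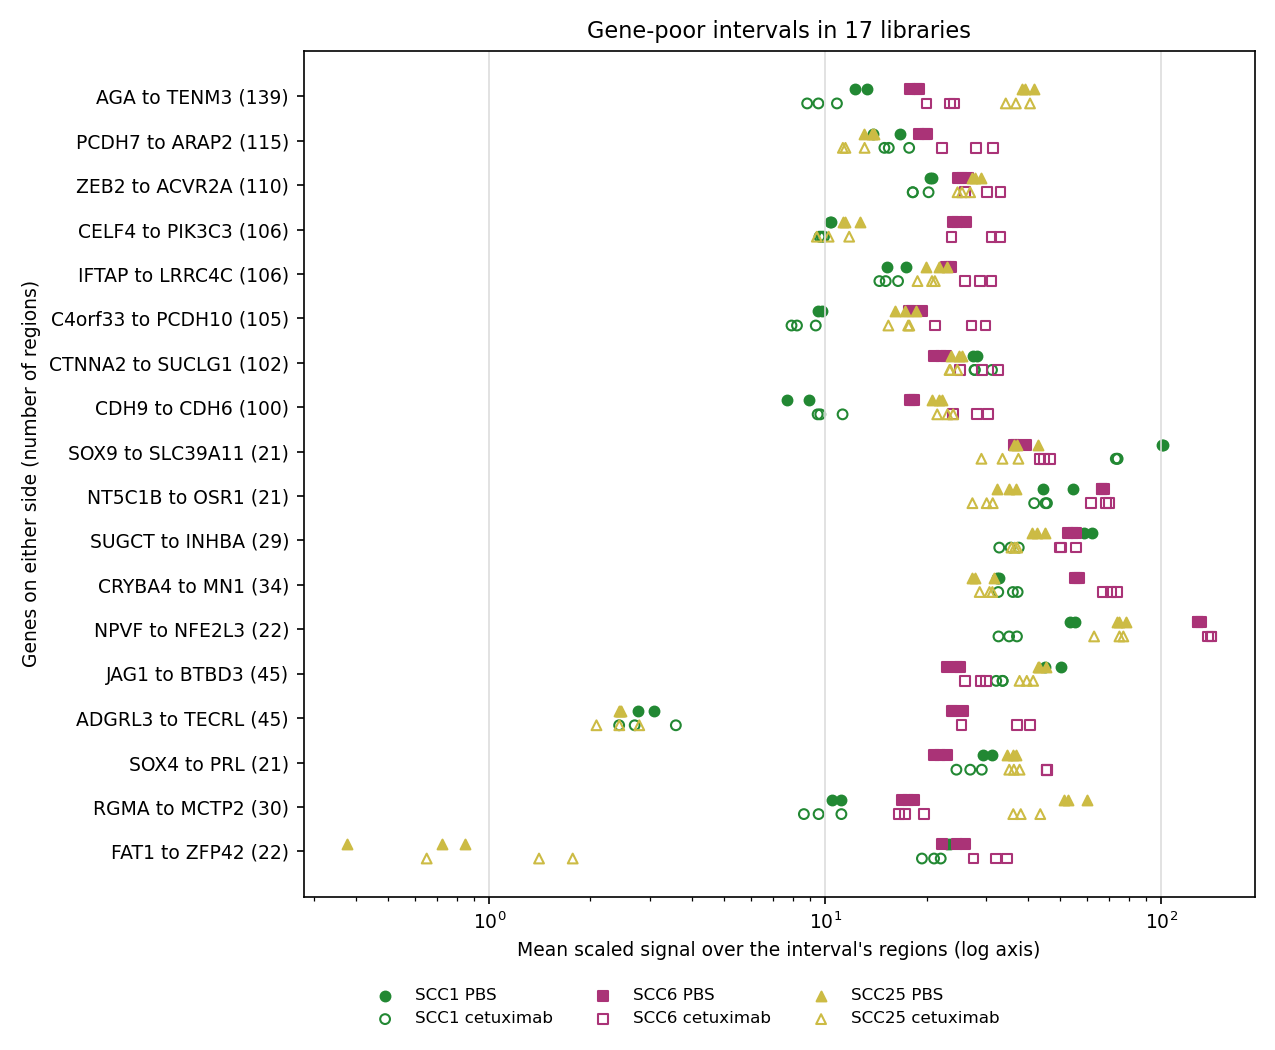
Mean signal over the desert regions of 18 intervals named by gene (rows, with the number of regions in brackets), 1 point per library on a log axis, filled for PBS and open for cetuximab; 4 further intervals, on chromosome 8, are not drawn. In the FAT1 to ZFP42 row the 6 SCC25 libraries stand at 0.4 to 1.8, the level of 1 read, and in the SOX9 to SLC39A11 row the untreated SCC1 libraries stand highest, at a mean of 100.7.

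A small set was open everywhere. Among the 333 desert regions with a peak in all libraries, the highest mean signal was at chr7:25901767-25902491, 289.3 kb from NFE2L3, which codes for a basic leucine zipper factor. It had 428.8 and 523.0 in untreated SCC1, 1052.5 to 1132.1 in untreated SCC6 and 467.3 to 527.2 in untreated SCC25. A region over an exon of LINC02607 (chr1:96208018-96208849) had 1349.2 ± 128.9 in untreated SCC25, and a region at FAM86DP (chr3:75484211-75485168) 538.7 ± 115.9 in untreated SCC1. The latter lies in duplicated sequence with near-identical copies elsewhere, so its reads are uncertain. Desert regions within 1 kb of a long non-coding RNA start (529) had a peak in all libraries in 6.05%, against 1.76% of the other 17126.

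At the far end, the 3 desert regions farthest from any start site that had a peak in at least 2 libraries lay 2466.6 to 2551.7 kb from PCDH7 on chromosome 4. The farthest, chr4:33479030-33479229, had 34.4 ± 1.5 in untreated SCC6 and 56.2 ± 10.7 after cetuximab (SD, n = 3 each), with no overlap (log2 change 0.68 ± 0.24, SE; limma adjusted p = 0.0334). It was at 4.5 or less in each library of SCC1 and SCC25. At the near end, the region just inside the limit lay 200.013 kb from LSAMP with a mean of 44.2 ± 16.7 in untreated SCC1, and the region just outside it, near ACKR3, had 312.3 and 304.8.

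Cetuximab changed many desert regions in SCC6, fewer in SCC1 and hardly any in SCC25. In SCC6 2522 rose and 1052 fell of 12102 tested (20.8% and 8.69%; over all regions 16.9% and 10.6%). In SCC1 194 rose and 721 fell of 10401 (1.87% and 6.93%; over all regions 4.57% and 6.56%). In SCC25 5 rose and 56 fell of 10561 (0.0473% and 0.530%; over all regions 0.0405% and 0.275%). The test was limma with Benjamini-Hochberg adjustment over all tested regions. The low count in SCC25 depended on single libraries, since none rose and none fell without PBS replicate 3, none rose and 1 fell without PBS replicate 1, 1 rose and 1 fell without PBS replicate 2, 103 fell without cetuximab replicate 2, and 9 rose and 95 fell without cetuximab replicate 3. In 1 fit of all libraries 9 rose and none of the desert regions fell in SCC25, and with the replicate number as a block 17 rose and 130 fell. edgeR on the recovered reads called 43 higher and 127 lower there (0.407% and 1.20%; over all regions 0.437% and 0.685%). An unadjusted p under 0.05 was found in 1749 desert regions, or 16.6% of those tested, against 13.2% of all regions. Centring each library on its median gave 6 higher and 24 lower in SCC25, and quantile normalization gave 14 and 49, so that 20% and 22.2% of the calls were higher against 8.20% as deposited (over all regions 36.2% and 31.2% against 12.9%).

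Against other regions far from promoters the desert regions of SCC1 and SCC6 were less apart than against promoters. Regions more than 1 kb and up to 200 kb from a start site rose in 2.82% and fell in 7.74% in SCC1, and rose in 19.4% and fell in 11.1% in SCC6. In SCC25 they fell in 0.294%, below the 0.530% of desert regions. Promoters went the other way, rising in 12.8% in SCC1 and 5.71% in SCC6. The share of desert regions that fell in SCC6 declined with distance, from 10.1% at 200 to 500 kb to 7.57% at 500 kb to 1 Mb and 3.94% beyond, while the share that rose stayed at 20.4% to 21.1%. In SCC1 the share that fell declined from 7.76% to 5.70% and 4.14%. Over these bands the median GC content went from 41.3% to 38.2% and 35.8%. By GC content, 0.996% of tested desert regions under 35% fell in SCC6 and 16.9% of those of 50% and over. Over all regions these shares were 0.962% and 13.1%. The part of GC content in the decline with distance was not tested. Position inside or outside a gene made little difference, since 20.7% of the desert regions between genes, 20.6% in long non-coding RNA genes and 23.5% in protein-coding genes rose in SCC6.

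The excess of rising desert regions in SCC6 moved with GC content and with the scaling. The median log2 change was 0.36 over tested desert regions and 0.11 over all regions. It was 0.47 in desert regions with a GC content under 35% and -0.10 in those of 50% and over, and the same bands gave 0.48 and -0.11 over all regions. With the GC trend taken out of each library, 1642 rose and 1222 fell, the share that rose was 13.6% against 14.5% over all regions, and the medians were 0.08 and 0.07. With each library centred on its median 1683 rose and 1521 fell, so that 52.5% of the calls were higher against 70.6% as deposited, and quantile normalization gave 1856 and 1493, or 55.4% higher. Over all regions the share of calls that were higher moved as well, from 61.5% as deposited to 39.7% after centring and 46.7% after quantile normalization. DESeq2 gave 1477 higher and 1069 lower (12.2% and 8.83%; over all regions 10.8% and 11.002%). Without SCC6 cetuximab replicate 1 the number that rose was 1529 and without replicate 2 it was 1579. In SCC1 the scaling shifted the split too, with 336 higher and 486 lower after centring, or 40.9% higher against 21.2%, and 288 and 616 after quantile normalization, or 31.9% higher. Over all regions the share higher in SCC1 was 41.1% as deposited, 65.3% after centring and 52.2% after quantile normalization. The SCC1 counts also rested on the untreated libraries, with 74 higher and 124 lower without PBS replicate 1 and 98 and 209 without PBS replicate 3, and 113 were higher without cetuximab replicate 1.

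Among the leading regions that rose in SCC6, 2 on chromosome 8 had large changes. One is in PVT1, a long non-coding RNA gene beside MYC, 445.5 kb from the MYC start (chr8:129196789-129197417). It went from 145.0, 130.5 and 152.3 to 504.1, 438.2 and 464.2 in SCC6 (log2 change 1.71 ± 0.10, SE; limma adjusted p = 5.4e-18) and from 170.4 and 216.6 down to 115.5, 107.1 and 78.2 in SCC1 (-0.95 ± 0.23; adjusted p = 0.0015). In SCC25 it was 165.0 ± 29.3 with PBS and 160.9 ± 27.2 after cetuximab. The change thus had opposite signs in SCC6 and SCC1, without overlap of the groups in either line. The other, 286.1 kb from ST3GAL1, a sialyltransferase gene (chr8:134870304-134870930), went from 10.0 to 15.7 with PBS to 169.3 to 194.0 after cetuximab in SCC6 (3.73 ± 0.24; adjusted p = 1.9e-17). It was already at 318.7 to 381.7 in untreated SCC25 and at 19.0 or less in every SCC1 library.

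Among the regions that fell in SCC6, 2 neighbours lay 429.0 and 433.0 kb from TMEM132B on chromosome 12. At chr12:126540054-126540454 the signal was 235.6, 221.5 and 241.4 with PBS and 56.6, 77.1 and 67.1 after cetuximab (log2 change -1.79 ± 0.15, SE; limma adjusted p = 2.2e-13). At chr12:126536038-126536713 it was 209.4 ± 10.9 and 57.2 ± 11.2 (SD, n = 3 each). In SCC25 both were open and the groups did not pass the test (adjusted p = 0.443 and 0.139), and in SCC1 the first was at 10.0 or less in every library. The third region, 703.7 kb from FSCB (chr14:44272253-44272764), went from 178.8, 174.0 and 187.1 to 46.5, 31.6 and 37.4 in SCC6, and was at 17.8 or less in each library of the other lines.

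In SCC1 the leading rise was at chr12:88172793-88173262, 248.5 kb from C12orf50. The signal was 6.5 and 10.0 with PBS and 81.2, 85.6 and 59.5 after cetuximab (log2 change 3.05 ± 0.41, SE; limma adjusted p = 5.1e-10). SCC6 showed the same rise, from 10.9, 10.0 and 16.3 to 144.5, 170.8 and 167.3 (3.62 ± 0.24; adjusted p = 2.4e-16), and SCC25 stayed between 5.3 and 15.6. A region 347.0 kb from DAOA rose in SCC1 from 83.3 and 52.5 to 176.4, 225.8 and 192.5, with 44.2 to 65.1 in all SCC6 libraries. A region 1124.6 kb from DNAJB9 rose from 10.4 and 30.1 to 106.6, 110.9 and 61.0.

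The leading falls in SCC1 were in non-coding RNA genes. In CCDC26, 964.7 kb from GSDMC (chr8:129799876-129800296), the signal was 347.4 and 304.8 with PBS and 73.6, 81.8 and 50.1 after cetuximab (log2 change -2.26 ± 0.23, SE; limma adjusted p = 4.1e-16). SCC6 fell there as well, from a mean of 316.6 ± 30.8 to 227.6 ± 14.4 (SD, n = 3 each; log2 change -0.47 ± 0.10; adjusted p = 0.000405). In LINC02405, on chromosome 12 and 1213.9 kb from TMEM132C, the signal fell from 282.3 and 236.7 to 62.2, 37.0 and 18.8 in SCC1 and from 87.4 ± 10.9 to 32.7 ± 9.8 in SCC6. In LINC00578, 361.9 kb from TBL1XR1, it fell from 308.4 and 321.6 to 72.3, 95.4 and 72.0 in SCC1, while SCC6 had 198.0 ± 4.6 and 198.1 ± 7.0. AP-1 matches were in the CCDC26 and LINC00578 regions and in none of the 3 that rose in SCC1.

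In SCC25 the calls were fewer and closer to the threshold. The leading fall, in LINC01605 and 244.3 kb from ZNF703, a zinc finger gene, went from 236.3, 217.8 and 217.2 to 80.1, 103.6 and 125.7 (chr8:37308546-37308980; log2 change -1.13 ± 0.16, SE; limma adjusted p = 0.0017). The call was lost without PBS replicate 3 (adjusted p = 0.0787) and in 1 fit of all libraries (0.426). The region 655.6 kb from ANKRD30A (chr10:36758520-36758963) went from 110.0, 113.9 and 111.1 to a mean of 47.2 ± 12.3 (-1.25 ± 0.20; adjusted p = 0.0075), and a region 477.5 kb from RGMA from 282.1 ± 35.6 to 163.7 ± 5.6. Of the rises, a region 566.2 kb from ADGRL4 (chr1:80313974-80314371) went from 15.6 ± 1.7 (SD, n = 3) to 57.7, 38.4 and 60.2 in SCC25 (1.65 ± 0.30; adjusted p = 0.0206), and from 13.9 ± 0.6 to 43.0 ± 8.9 in SCC1. A region in CASC15 (chr6:21946547-21947051) went from 10.6, 26.7 and 8.5 to 49.2, 41.7 and 54.9, and in SCC6 from 3.6, 8.7 and 10.9 to 168.7, 176.4 and 177.5. Apart from the LINC01605 and CASC15 regions, each of these, and the remaining one near BUD13, lost its call when any one of the PBS replicates was left out. The CASC15 region lost it without PBS replicates 1 and 3 (adjusted p = 0.177 and 0.255). In 1 fit of all libraries the calls near ANKRD30A and RGMA and in CASC15 were lost too (adjusted p = 0.36, 0.246 and 0.216).

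**Figure D4:**
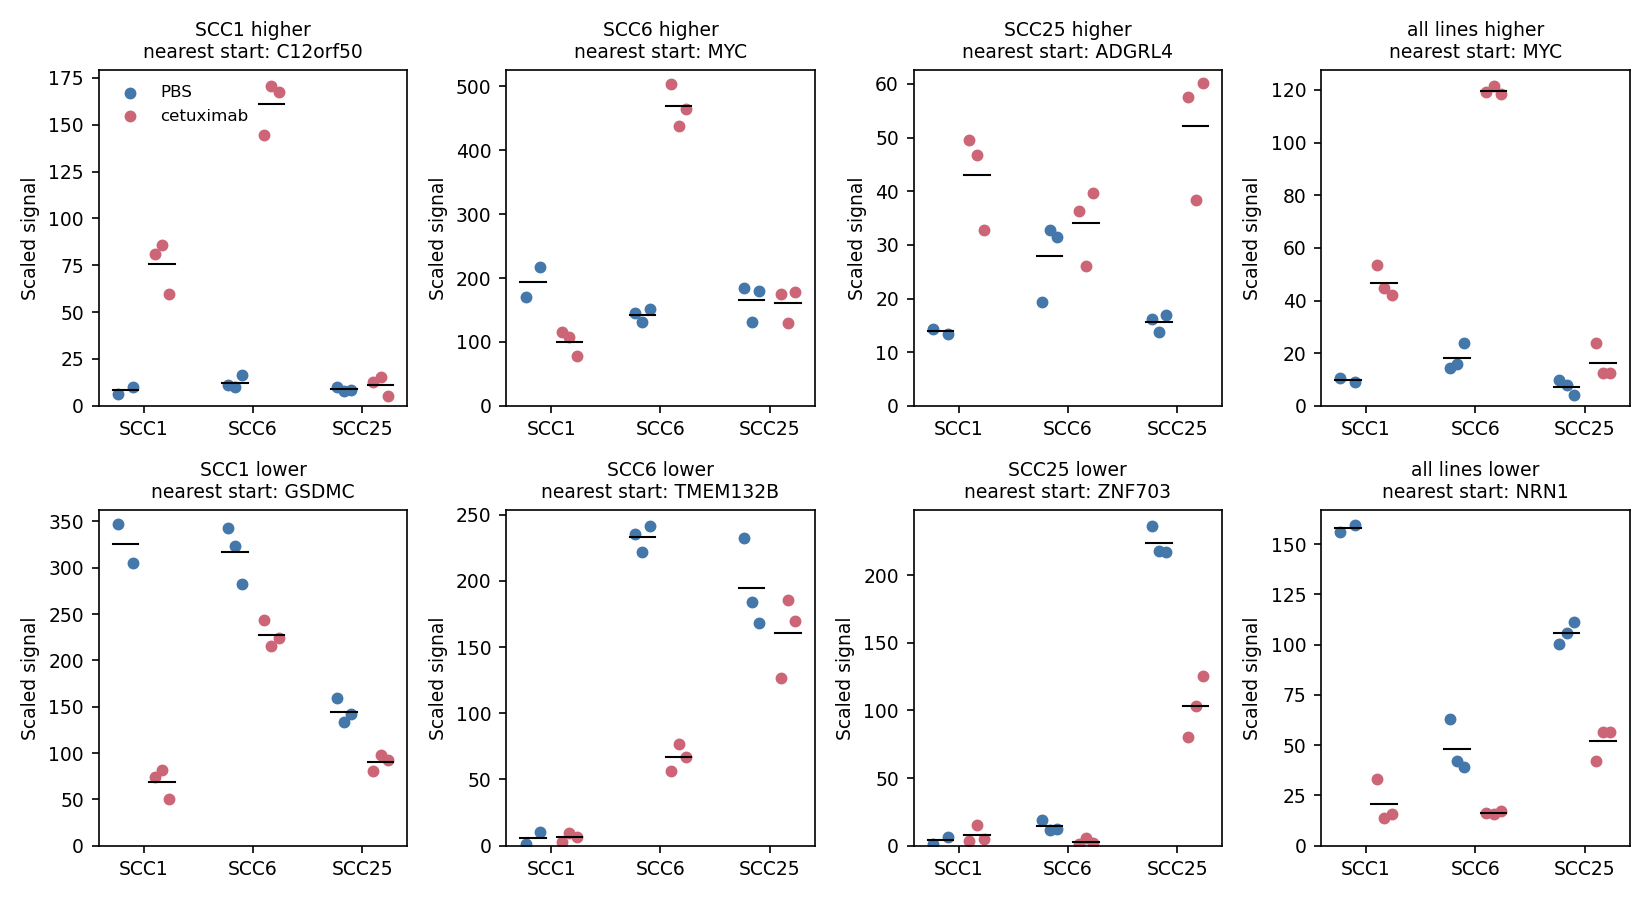
Signal in each of 17 libraries for the desert region with the smallest adjusted p of those reported in each direction in SCC1, SCC6, SCC25 and all lines, with the nearest start site named; points are libraries (PBS blue, cetuximab red) and bars their mean. The region that rose in SCC6, in PVT1 near MYC, stands at 130.5 to 152.3 with PBS and 438.2 to 504.1 after cetuximab there, and is lower after cetuximab in SCC1.

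Over all lines, with the line as a covariate, 709 desert regions rose and 835 fell of 11186 tested (6.34% and 7.46%; over all regions 5.14% and 7.04%). With the replicate number as a block 248 rose and 424 fell. With the GC trend taken out 451 rose and 1041 fell, so that 30.2% of the calls were higher against 45.9% (over all regions 30.6% against 42.2%). The number that rose moved most with SCC6 libraries, being 381 and 407 without its cetuximab replicates 1 and 2 and 456 and 447 without its PBS replicates 2 and 3. It was 651 without SCC6 cetuximab replicate 3, 496 without SCC6 PBS replicate 1, and 586 to 850 without any 1 library of SCC1 or SCC25. Over all regions the share that rose was 3.08% and 3.10% without SCC6 cetuximab replicates 1 and 2, against 5.14%. The leading rise was again in PVT1, 213.1 kb from MYC (chr8:128964406-128964751). It went from 10.4 and 8.9 to 53.3, 44.8 and 42.3 in SCC1, from 14.5, 16.1 and 23.9 to 119.2, 121.6 and 118.4 in SCC6 and from 9.8, 7.9 and 4.2 to 23.9, 12.4 and 12.4 in SCC25 (log2 change 1.95 ± 0.25, SE; limma adjusted p = 0.000105). The leading fall was in an intron of FARS2, a mitochondrial tRNA synthetase gene, 273.5 kb from NRN1 (chr6:5729200-5729664). It went from 156.1 and 159.7 to 33.0, 13.6 and 15.6 in SCC1, from 62.8, 42.2 and 39.2 to 16.2, 15.8 and 17.2 in SCC6 and from 100.2, 106.0 and 111.1 to 42.2, 56.7 and 56.7 in SCC25 (-1.74 ± 0.23; adjusted p = 0.00013). The other 4 named by the rule, near OTOL1, FANCL, FLRT2 and SLC6A15, had limma adjusted p-values of 0.000133 to 0.000175. That groups did not overlap in any line was part of the rule. By the tests per line, the leading rise in PVT1 did not pass in SCC25 (limma adjusted p = 0.359). Nor did the regions near OTOL1, FANCL and SLC6A15 there (0.232, 0.222 and 0.0775). The region near FLRT2 did not pass in SCC1 (0.267).

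The lines shared a part of these changes. Of the 194 desert regions that rose in SCC1, 115 (59.3%) rose in SCC6, which are 4.56% of the 2522 that rose there, and 4 fell. Over all regions 20.9% of those that rose in SCC1 rose in SCC6, which are 5.64% of the rises there. Of the 721 that fell in SCC1, 194 (26.9%) fell in SCC6, or 18.4% of the 1052, and 51 rose (over all regions 26.4% and 16.3%). Of the 56 that fell in SCC25, 27 (48.2%) fell in SCC6 and 10 (17.9%) in SCC1, against 42.2% and 25.7% of all regions that fell in SCC25. Differences between these shares were not tested. By the 3 separate tests 6 desert regions fell in all 3 lines, the FARS2 region among them, and 1 rose, which is named here after its values were seen (over all regions 33 fell and 6 rose in all 3). It overlaps an exon of THSD7B, 230.25 kb from a start site of that gene (chr2:138169138-138169563), and went from 53.3 and 40.2 to 118.0, 126.5 and 162.8 in SCC1, from 114.8, 85.6 and 67.4 to 172.7, 181.0 and 157.4 in SCC6 and from 13.6, 7.9 and 3.4 to 37.96, 21.5 and 39.0 in SCC25 (limma adjusted p = 3.8e-06, 7.0e-06 and 0.0453). Whether the effect differed between lines was tested by the interaction of line and treatment, which 1348 of 11186 desert regions passed (12.1%; 13.2% of all regions tested). The smallest p-values were those of the regions near ST3GAL1 (limma adjusted p = 1.05e-09) and IRS2 (8.07e-09). Near IRS2, which codes for an insulin receptor substrate (chr13:110088547-110088990), the signal went from 8.5, 8.7 and 7.6 to 68.7, 70.6 and 60.5 in SCC6 and was 209.2 ± 19.9 and 203.1 ± 20.4 in SCC1 and 93.9 ± 1.8 and 76.7 ± 13.2 in SCC25. At both regions untreated SCC6 was below untreated SCC25 (limma adjusted p = 2.7e-10 and 6.4e-10). Both regions were named for the interaction, which uses the same untreated values, so these p-values are no separate support.

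Adjacent desert regions within 25 kb that both passed the test went the same way in 405 of 551 pairs (73.5%) in SCC6, 85 of 89 (95.5%) in SCC1 and each of 2 pairs in SCC25. Adjacent pairs over all regions gave shares near these, 69.1% in SCC6 and 95.4% in SCC1. Since 70.6% of the calls of desert regions in SCC6 were higher, many pairs would share a direction without any link between neighbours. In SCC6 65 clusters held 3 or more regions that rose and none that fell, 22 held 3 or more that fell and none that rose, and 259 held both. In SCC1 these numbers were 1, 29 and 25. Neighbours share local sequence and the same libraries, so pairs are a description.

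The CASC15 cluster between SOX4 and PRL had the most rises in SCC6 (chr6:21801215-22037098). CASC15 is a long non-coding RNA gene, SOX4 a transcription factor gene of progenitor cells. Of its 20 regions 16 were tested in SCC6, and 10 rose and 1 fell. The summed signal of the cluster was 441, 482 and 460 with PBS and 954, 959 and 955 after cetuximab in SCC6, while it was 631 ± 30.6 and 556 ± 43.7 in SCC1 and 709 ± 22.4 and 725 ± 20.1 in SCC25 (SD, n = 3, n = 2 for SCC1 PBS). The order of values in SCC6 left no overlap, and in SCC25 the groups overlapped.

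The cluster with the most falls lay between LY86 and RREB1 (chr6:6791175-6879386), RREB1 being a zinc finger factor that acts downstream of RAS. Of its 12 regions 7 fell in SCC1 and 5 fell and 1 rose in SCC6. The summed signal was 1090 and 1181 with PBS and 457 to 597 after cetuximab in SCC1, 849, 897 and 907 with PBS and 442 to 457 after cetuximab in SCC6, and 790 ± 42.7 and 647 ± 84.6 in SCC25. Of the 12, 7 held an AP-1 match. In the SOX9 to SLC39A11 cluster 5 of 21 regions fell in SCC1 and the sum went from 2109 and 2119 to 1536, 1555 and 1549, while in SCC6 4 rose and 1 fell and it went from 763 to 828 to 910 to 977. Of its 21 regions 13 held an AP-1 match. A small cluster in LINC01205 between DPPA4 and NECTIN3 had 2 of its 3 regions fall in SCC25 and all 3 in SCC6, with sums of 226 ± 23.5 and 119 ± 21.9 in SCC25. These clusters, apart from the CASC15 and SOX9 clusters, which are among the largest, were picked for their counts of calls and carry no test.

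Among intervals with 20 or more regions, the share of an interval's regions, tested or not, that fell in SCC1 was highest between SUGCT and INHBA. There 9 of 29 fell in SCC1. Of the tested regions 9 of 23 fell in SCC1 and 8 of 24 fell in SCC6. INHBA codes for the activin beta A subunit. The mean signal there went from 60.5 ± 2.45 to 35.4 ± 2.36 in SCC1 and was 54.2 ± 1.57 and 51.9 ± 3.18 in SCC6. In the PCDH7 to ARAP2 interval 21 rose and 1 fell of 71 tested in SCC6, in the CDH9 to CDH6 interval 24 rose and 1 fell of 63, and in the C4orf33 to PCDH10 interval 14 rose and none fell of 67. These had the fewest falls of the 8 intervals with the most regions and carry no test. Of the rest of the 8, AGA to TENM3 had 14 rises and 7 falls of 90, and ZEB2 to ACVR2A 19 and 7 of 78. CELF4 to PIK3C3 had 11 and 5 of 82, IFTAP to LRRC4C 21 and 3 of 76, and CTNNA2 to SUCLG1 20 and 3 of 71. Over all tested desert regions 20.8% rose and 8.69% fell in SCC6, and over all regions 16.9% and 10.6%. The means of the PCDH7, CDH9 and C4orf33 intervals in SCC6 cetuximab replicate 3, the library with the most reads, were 22.2, 24.0 and 21.2. These were lower than in the other treated SCC6 libraries (27.2 to 31.5) and above the untreated ones (17.7 to 20.1). The median GC content of these 3 intervals was 34.3% to 36.3%, and the part of GC content in these means was not tested.

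The AP-1 and TEAD motifs went with the direction of change in SCC6 and SCC1. AP-1 matches were in 54.4% of desert regions that fell in SCC6, 22.4% of those that rose and 25.4% of those not called, and in 54.6% of those that fell in SCC1, 21.6% of those that rose and 36.5% of those not called. In SCC25 35 of the 56 that fell, or 62.5%, had an AP-1 match, against 39.3% of those not called and 53.2% of all regions that fell there. TEAD matches, the motif of factors that act with YAP and TAZ, were in 25.3% of those that rose in SCC6 and 15.2% of those not called, and in 33.0% and 20.1% in SCC1. RUNX matches were in 10.51% of those that rose in SCC6 and 6.39% of those not called. SCC1 went the other way, with 7.22% of those that rose and 8.24% of those not called. In SCC25 they were in 14.3% of the 56 that fell and 8.90% of those not called. Since called and uncalled regions differed in GC content, the shares were also taken in desert regions of 40% to 45% GC only. In SCC6 AP-1 was then in 56.1% of those that fell, 27.9% of those that rose and 39.1% of those not called, and TEAD in 19.1%, 31.1% and 21.6%. Over all regions so called, AP-1 was in 44.1% of those that fell in SCC6 and TEAD in 28.1% of those that rose. In SCC1 AP-1 was in 53.2% of all regions that fell. The AP-1 pattern, and the TEAD pattern of SCC6, are thus not of desert regions in particular. The TEAD pattern of SCC1 was not seen over all regions, with 17.9% of those that rose and 18.6% of those not called. All regions that rose in SCC1 had a median GC content of 62.0%, against 41.8% in the desert regions that rose.

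Between untreated lines the motifs differed too. AP-1 matches were in 43.7% of desert regions higher in SCC25 than in both others, 38.4% of those higher in SCC1 and 16.2% of those higher in SCC6. RUNX matches were in 11.8%, 3.86% and 5.48% of them. TEAD matches were in 17.4%, 23.7% and 14.0%. The median GC content of the 3 sets was 43.2%, 45.3% and 33.8%, in the same order.

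**Figure D5:**
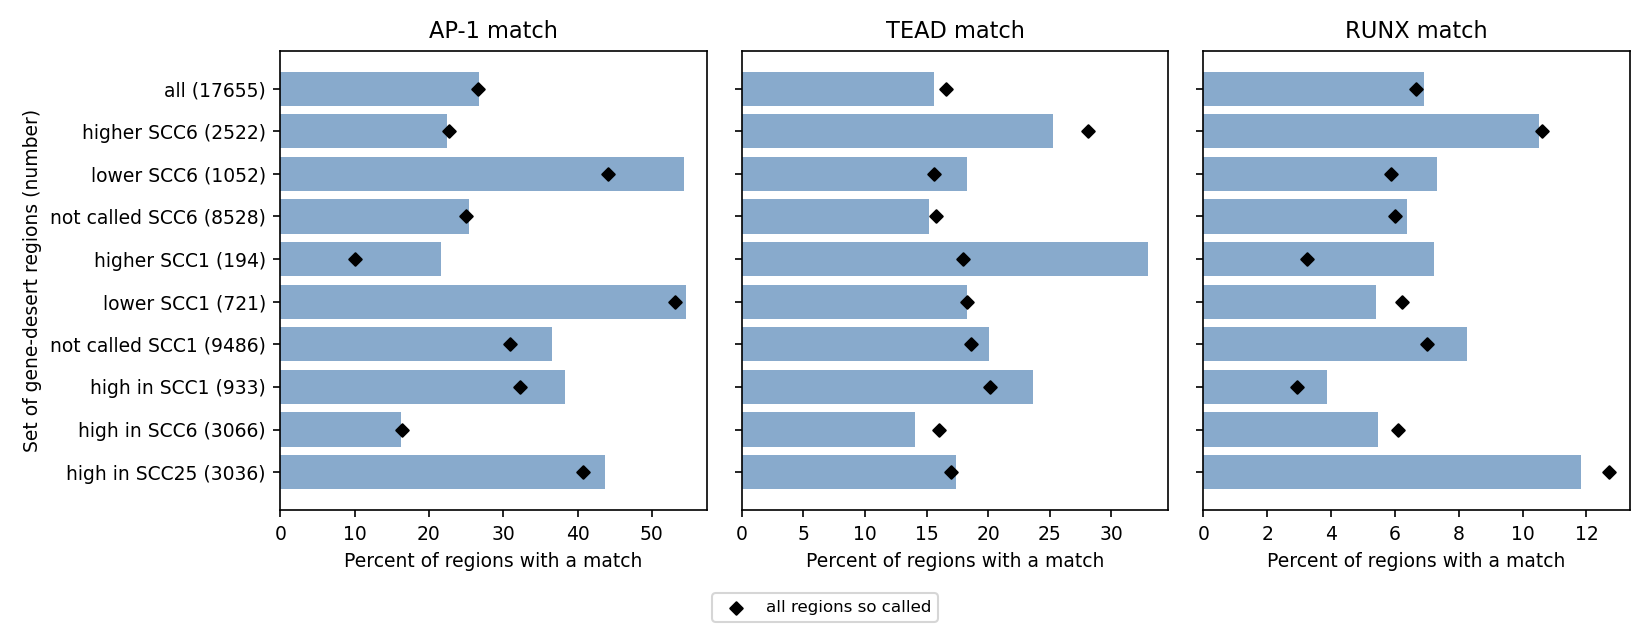
Percent of desert regions whose central 200 bases hold an AP-1, TEAD or RUNX match (bars), by direction of change after cetuximab in SCC6 and SCC1 and by the untreated line in which they are highest, with the same share over all regions so called (black diamonds). AP-1 is at 54.4% in those that fell in SCC6 and 54.6% in those that fell in SCC1, and TEAD at 25.3% and 33.0% in those that rose.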

How the data were processed

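Per the labels and the study's methods, the authors trimmed reads with Trim Galore 0.5.0, aligned them with Bowtie2 2.3.2 to hg19 (GRCh37), took out duplicates and mitochondrial reads (Picard 2.18) and unmapped or low-quality ones (SAMtools 1.9), called peaks per library with MACS2 (the deposited lists are broad peaks) and used DiffBind. The deposited table of regions holds a scaled signal in 17 libraries. Divided by the step of its library, each value came out whole to within 0.001. The deposited peak lists give a fold enrichment (ratio) and −log10 p and q values, of which only positions were used.

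Distances run from a region's nearer edge to a start site. Coordinates are as deposited; 96.4% of region starts equal a start in the peak lists, which count from 0, so that the first base is then 1 higher. Peaks overlapped a region by 1 base or more. The limma 3.58.1 fits (R 4.3.3, trend and robust, two-sided) used log2(signal + 1) per line, over all lines and over PBS libraries, without the 25% of regions lowest in mean, Benjamini-Hochberg threshold 0.05. Fold changes on this scale understate those of low regions. The alternatives were edgeR 4.0.16 and DESeq2 1.42.0 on recovered reads, other scalings, a pseudocount of 5, no filter, a replicate block, leaving out each library, and limits of 100 and 500 kb. On simulated reads with 200 regions changed by a log2 of 2, the interaction fit recovered 42% of them, the SCC1 fit 67% and the others 82.5% to 87.5%. False calls ran from 2 of 86 in the interaction fit to 17 of 182 in the fit of untreated lines. Python 3.11.15, numpy 2.4.6, pandas 2.3.3 and matplotlib 3.10.9 did the rest.

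Regions named in the text are, by rule, the 3 with the smallest adjusted p in each direction and fit whose groups do not overlap (over all lines, in no line), the 3 highest in each untreated line, the 3 with the smallest interaction p, the 3 farthest, the 3 brightest with a peak in every library, those at the limit, and the 8 intervals and 5 clusters with most regions; others are marked, and a few items so chosen are not reported here. The regions, lists, rules and tests were chosen with earlier results of these data known.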

Additional observations from a re-analysis of the deposited data

Results flagged for a closer look

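The effect of cetuximab differed between lines by the interaction test of limma in 1348 desert regions, as given above. Of the regions named for a change in a single line, these passed that test with the adjusted p given for each. In SCC1 they were the regions near C12orf50 (6.88e-05), DAOA (0.000623), GSDMC (1.24e-05), TMEM132C (0.00024) and TBL1XR1 (2.52e-07). In SCC6 they were the regions near MYC (1.09e-07), ST3GAL1 (1.05e-09), TMEM132B at 433.0 kb (0.0176) and FSCB (0.00234). In SCC25 they were the regions near BUD13 (0.0172), PRL in CASC15 (0.00118) and ZNF703 (0.017). The region near IRS2, named for the interaction itself, had 8.07e-09. The remaining regions named for a single line did not pass, among them those near ADGRL4 (0.0574) and ANKRD30A (0.0814). All these regions were named from libraries that the interaction test also uses, so its p-values are no separate support.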

How the results depend on the processing

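Named regions kept direction under every alternative run, and their side of the threshold in 713 fits but not in 20, all but 1 of them in SCC25. Counts of the 15 comparisons (after cetuximab as higher/lower, desert regions) moved by over 1.5 times as follows. DESeq2 gave 129/340 in SCC1, 1477 higher in SCC6 and 13 higher in SCC25; edgeR gave 43/127 in SCC25; all libraries in 1 fit gave 353 higher in SCC1, 1299 higher in SCC6 and 9/0 in SCC25. Centring on the median gave 336 higher in SCC1, 24 lower in SCC25 and 1448 lower in untreated SCC25; quantile normalization gave 14 higher in SCC25; no filter gave 12 higher in SCC25 and 5776 higher in untreated SCC6. Taking out the GC trend, chosen after seeing the data, gave 1642 higher in SCC6, 451 higher over all lines, 37 lower in SCC25 and 1781 higher in untreated SCC6. These causes were not tested.

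Replicate numbers did not pair the libraries (correlation of deviations -0.0420 to 0.0265). With them as a replicate block, counts were 17/130 in SCC25 and 248/424 over all lines; in the other fits with the replicate block no count moved by over 1.5 times.

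Leaving out 1 library gave 74 to 191 higher and 124 to 892 lower in SCC1, 1529 to 3386 and 790 to 985 in SCC6, 0 to 9 and 0 to 103 in SCC25, 381 to 850 and 625 to 869 over all lines, 1048 to 1607 for the interaction, and in untreated lines 580 to 990 higher and 1502 to 1715 lower in SCC1, 2445 to 3415 and 1960 to 2246 in SCC6, and 2349 to 3255 and 675 to 884 in SCC25. Without an SCC1 PBS library the remaining one is assumed to vary like the others.

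Limits of 100 and 500 kb change the set itself, to 28191 and 6914 regions. At 100 kb counts were 327/1398 in SCC1, 4049/1942 in SCC6, 1162/1527 over all lines and 2420 for the interaction, and in untreated lines 1840/2806 in SCC1, 4614/4005 in SCC6 and 4786/1606 in SCC25. At 500 kb they were 78/187, 959/307, 290/243 and 397, then 294/572, 1337/747 and 1012/339, and 1/21 in SCC25. With start sites of protein-coding transcripts only there were 20272 desert regions. Reads per desert region were fewest in SCC1 by the median.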
